A study of Mus musculus with 4 samples.

Results

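The 10 genes that place or remove the trimethyl mark on lysine 27 of histone H3 were measured at the RNA level in primary mouse neural stem/progenitor cells (NSCs) with and without Chd5. They were chosen by name and not by a rule on their values, but with earlier results of these data known. Ezh1, Ezh2, Eed and Suz12 are the core subunits of Polycomb repressive complex 2 (PRC2). The others are its accessory subunits Mtf2, Phf19, Jarid2 and Aebp2, and the H3K27 demethylases Kdm6a and Kdm6b. Each name matched 1 row, so that 10 of the 18169 rows of the table are members. All 10 passed the minimum mean of 1 TPM set for testing (TPM, the abundance of a transcript per length, scaled to a fixed total in each sample), as did 12576 rows in all.

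RNA sequencing covered 2 +/+ and 2 Chd5-/- samples of strain C57BL/6. Chd5 is a chromatin remodeler of the NuRD type, and the Chd5-/- cultures came from a Chd5-deficient mouse line made earlier. Every sample was a culture grown from the periventricular region of the brain of 1 newborn, with epidermal growth factor and fibroblast growth factor 2 in the medium of both genotypes. All were taken at postnatal day 1 by the growth protocol, but the age entries of the labels read day 1 and day 2 in the +/+ group, and day 3 and day 4 in the Chd5-/- group. If those entries hold, genotype cannot be told apart from age.

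The targeted gene was low in every sample, with 0.39 and 0.37 TPM in +/+ and 0.06 and 0.04 TPM in Chd5-/- NSCs. TPM keeps no read numbers, so depth is unknown and counting errors are not given. The neural stem cell markers Nes, Sox2, Vim, Fabp7, Msi1, Sox9, Slc1a3 and Hes1 were all found. They summed to 8134 to 9787 TPM in +/+ and to 3852 and 6598 TPM in Chd5-/- samples. Fabp7 was the largest part, at 5891.59 and 4315.73 TPM in +/+ and 1938.77 and 3822.43 TPM in Chd5-/- samples. Nes, Msi1 and Sox9 overlapped between genotypes, and the others were lower in both Chd5-/- samples. Markers of neurons summed to 506.2 and 516.9 TPM in +/+ and to 370.1 and 790.1 TPM in Chd5-/- samples. Map2 made up nearly all of that sum, at 502.92 and 515.77 against 365.59 and 784.89 TPM. The other neuronal markers, Tubb3, Dcx, Rbfox3, Snap25 and Stmn2, were each at 2.98 TPM or less. Markers of astrocytes summed to 371.7 and 453.6 against 133.4 and 634.4 TPM. Those of the oligodendrocyte lineage summed to 567.1 and 627.8 against 499.7 and 916.9 TPM. Microglial markers reached at most 0.30 TPM and mesenchymal and endothelial markers at most 5.41 TPM in sum, both in Chd5-/- replicate 1. These are bulk cultures, in which fewer cells of a type and less RNA per cell cannot be told apart. The part of cell composition in the results was not tested.

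PRC2 is the enzyme complex that methylates H3K27 and so keeps developmental genes silent. EZH2 or its paralog EZH1 is the catalytic subunit, EED reads the mark that the complex writes, and SUZ12 is the scaffold on which the complex assembles. A given complex carries either a Polycomb-like protein such as MTF2 or PHF19, a form called PRC2.1, or JARID2 and AEBP2, a form called PRC2.2. EZH2 predominates in dividing cells, where its gene is a known target of the E2F factors, and EZH1 is the form typical of cells that have left the cycle. KDM6A (UTX) and KDM6B (JMJD3) take the methyl groups off again, and in neural progenitors PRC2 is known to time the switch from making neurons to making glia.

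Upstream sequences are shown for the paralogous pair of catalytic subunits and for the other members whose start carried an E2F-type motif. RefSeq promoter windows of GRCm38.p6, from 250 bases before to 50 after the start, were found for 9 of the 10 genes, in 13 windows. The letters TTTCCCGC and TTTGGCGC were searched on both strands, and no member's window held both. One or the other occurred in 3 of the 13 windows, those of Ezh2, Suz12 and Phf19, and in 1.56% of all 32851 windows analysed. The sequences below run 5′ to 3′ toward the RefSeq start, with a match in capitals, and that of Ezh2 runs past the start to the end of its match. The gene spans given further below come from another annotation, GENCODE M21. In it Ezh2 and Phf19 start further upstream, so the stretch of Ezh2 and part of that of Phf19 lie within those spans. Those of Ezh1, Ezh2 and Phf19 lie on the minus strand and that of Suz12 on the plus strand.
Ezh1, chr11:101226464-101226713: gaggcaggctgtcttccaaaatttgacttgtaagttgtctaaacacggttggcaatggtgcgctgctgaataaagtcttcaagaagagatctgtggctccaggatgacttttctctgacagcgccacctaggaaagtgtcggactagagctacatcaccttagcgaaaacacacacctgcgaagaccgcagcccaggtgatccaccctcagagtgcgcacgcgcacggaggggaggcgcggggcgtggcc
Ezh2, chr6:47595020-47595280: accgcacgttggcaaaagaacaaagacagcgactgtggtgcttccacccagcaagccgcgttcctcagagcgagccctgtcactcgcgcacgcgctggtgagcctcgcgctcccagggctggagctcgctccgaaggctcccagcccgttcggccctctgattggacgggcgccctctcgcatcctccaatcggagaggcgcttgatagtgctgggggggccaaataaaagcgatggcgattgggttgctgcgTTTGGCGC
Suz12, chr11:79992856-79993105: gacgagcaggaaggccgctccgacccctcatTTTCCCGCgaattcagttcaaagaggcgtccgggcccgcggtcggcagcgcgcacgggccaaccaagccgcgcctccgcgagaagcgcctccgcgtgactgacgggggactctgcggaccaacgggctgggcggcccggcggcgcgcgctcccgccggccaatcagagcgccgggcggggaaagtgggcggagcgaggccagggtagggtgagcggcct
Phf19, chr2:34913977-34914226: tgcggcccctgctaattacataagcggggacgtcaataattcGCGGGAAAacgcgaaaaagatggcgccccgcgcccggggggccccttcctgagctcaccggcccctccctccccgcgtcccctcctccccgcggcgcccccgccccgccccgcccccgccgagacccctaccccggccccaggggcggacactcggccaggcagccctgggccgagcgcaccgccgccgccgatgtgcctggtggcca
In Ezh2 the match began at position 4 after the start on the coding strand, in Suz12 at position -219 on the coding strand, and in Phf19 at position -208 on the other strand. The window of Ezh1 held 23 CpG dinucleotides, that of Ezh2 31, that of Suz12 41 and that of Phf19 38, and the median of all windows was 7. A match is a run of letters and not a measured binding site.

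As deposited, Jarid2, Kdm6b, Phf19 and Ezh1 were each higher in both Chd5-/- samples than in either +/+ sample, at 1.91 to 2.37 times the +/+ mean. Ezh2, Eed, Suz12 and Kdm6a overlapped between genotypes, Aebp2 was lower in both Chd5-/- samples, and Mtf2 was higher by a small margin. The values depend on the scaling of the table, which moves all rows. With median-of-ratios scaling the median row was at 0.0052, and 9 of the 10 members did not overlap, all but Kdm6a. The log2 differences were then -0.40 for Ezh2, -0.60 for Eed, -0.51 for Suz12 and -0.63 for Aebp2. That of Aebp2 was at an unadjusted p of 0.0462 and an adjusted p of 0.219 with limma. Rescaling without the 20 most abundant rows left 8 members without overlap, and quantile normalization 5. The share of all rows without overlap was not counted under these scalings, so nothing is read from these counts. None of the 10 passed limma's test at an adjusted p under 0.05, a threshold that 7 of 12576 rows, or 0.0557%, passed. At an unadjusted p under 0.05, 3 members were higher in Chd5-/- NSCs (Jarid2, Kdm6b and Ezh1) and 0 were lower as deposited, against 21.9% of all rows higher and 2.27% lower. Without overlap between genotypes, 5 members were higher and 1 was lower, against 46.3% and 13.0% of all rows. These shares of the members lie near those of all rows, and nothing is read from the counts about the members as a group.

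**Figure D1:**
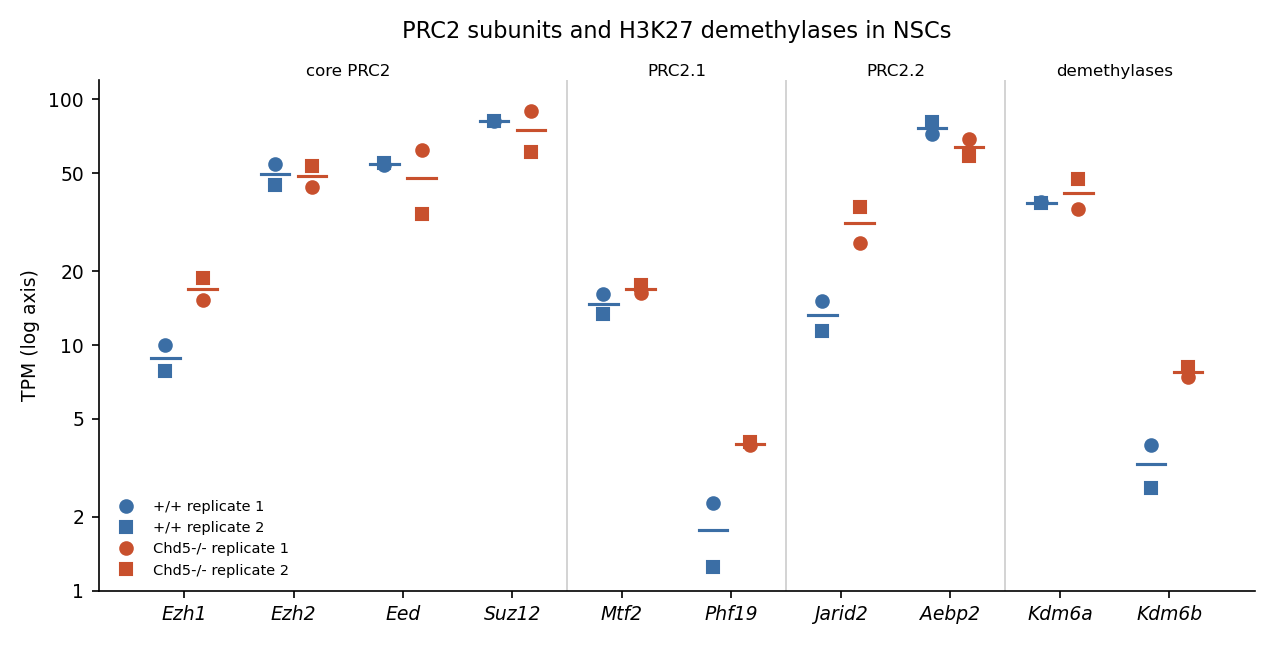
TPM of the 10 members (log axis) in each of the 4 samples, with +/+ in blue and Chd5-/- in orange, circles for replicate 1, squares for replicate 2 and a bar at each genotype's mean. Jarid2, Ezh1, Kdm6b and Phf19 separate the genotypes, whereas the symbols of Ezh2, Eed, Suz12 and Kdm6a overlap.

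All differences given below are Chd5-/- minus +/+ group means of log2(TPM + 1), from limma fitted to all rows tested, with 95% confidence intervals and p-values adjusted over all rows by Benjamini-Hochberg. On this scale differences are compressed where TPM is low. The median row was higher by 0.34 in Chd5-/- samples and the median member by 0.15, so a difference of 0 for a member lies under the middle of the table. With 2 samples against 2, an exact permutation test on a single gene cannot give a two-sided p below 0.333. The p-values measure only the spread between these cultures.

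Of the core subunits, the catalytic pair gave unlike values. Ezh2 had 54.68 and 44.95 TPM in +/+ and 44.12 and 53.37 TPM in Chd5-/- NSCs. The 4 samples interleaved, and the means of 49.8 ± 6.88 and 48.7 ± 6.54 TPM (SD, n = 2 each) were closer than the replicates of either genotype. Its log2 difference was -0.030 (95% interval -0.64 to 0.58, adjusted p = 0.949 with limma). The interval leaves room for a change of either sign, which these samples cannot resolve. Ezh2 lies on chr6:47530139-47595341, minus strand, in GRCm38.

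Ezh1 (chr11:101191115-101226463, minus strand) had 9.97 and 7.81 TPM in +/+ and 15.26 and 18.68 TPM in Chd5-/- NSCs. Both Chd5-/- cultures were above both +/+ cultures, and the means were 8.89 ± 1.53 and 16.97 ± 2.42 TPM (SD, n = 2 each). The log2 difference was 0.86 with a standard error of 0.28 (95% interval 0.15 to 1.57), at an unadjusted p of 0.0257 and an adjusted p of 0.165 with limma. Over all fits the adjusted p ran from 0.112 to 0.790.

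Eed (chr7:89954654-89980983, minus strand) and Suz12 (chr11:79993106-80034123, plus strand) shared a pattern in which the +/+ replicates were nearly equal and the Chd5-/- replicates were far apart. Eed stood at 54.13 and 54.82 TPM in +/+ and at 62.04 and 34.09 TPM in Chd5-/- NSCs. Suz12 stood at 81.97 and 81.61 TPM in +/+ and at 89.76 and 60.93 TPM in Chd5-/- NSCs. For both genes Chd5-/- replicate 1 was the highest of the 4 samples and Chd5-/- replicate 2 the lowest. The log2 difference was -0.24 for Eed (95% interval -1.09 to 0.61, adjusted p = 0.683 with limma) and -0.14 for Suz12 (95% interval -0.82 to 0.53, adjusted p = 0.760 with limma). Without Chd5-/- replicate 2 both differences changed sign, to 0.18 for Eed and 0.13 for Suz12. Between the Chd5-/- replicates Eed differed by 0.85 and Suz12 by 0.55 on the log2 scale, more than between the genotypes.

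Summed over Ezh1, Ezh2, Eed and Suz12, the core held 200.8 and 189.2 TPM in +/+ and 211.2 and 167.1 TPM in Chd5-/- NSCs, so the sums overlapped. Proliferation genes, to which Ezh2 is known to be tied, summed to 2293 and 2181 TPM in +/+ and to 2142 and 1358 TPM in Chd5-/- NSCs. Of the 23 genes, 8 had their lowest TPM in Chd5-/- replicate 2 and 9 their highest, and 15 had their lowest in +/+ replicate 2. Ccnd1, a cyclin of the early cycle that was singled out after its values were seen, was at 110.93 TPM in Chd5-/- replicate 2 and at 710.2, 983.94 and 722.51 TPM in +/+ replicates 1 and 2 and Chd5-/- replicate 1. The part of proliferation in the levels of the core subunits was not tested.

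Among the accessory subunits, Jarid2 had the largest log2 difference of the 10 members at a pseudocount of 1, while at 0.1 Kdm6b was slightly above it (1.25 against 1.23). JARID2 helps to bring PRC2 to chromatin and is itself a substrate of the complex. Its gene (chr13:44729474-44921643, plus strand) had 15.08 and 11.37 TPM in +/+ and 26.09 and 36.56 TPM in Chd5-/- NSCs. Every Chd5-/- value was above every +/+ value, and the means were 13.2 ± 2.62 and 31.3 ± 7.40 TPM (SD, n = 2 each), a ratio of 2.37. The log2 difference was 1.18 with a standard error of 0.30 (95% interval 0.43 to 1.93), at an unadjusted p of 0.00971 and an adjusted p of 0.129 with limma. Over the alternatives the difference stayed between 0.78 and 1.41, and the adjusted p ran from 0.0502 to 0.759.

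Aebp2 (chr6:140622663-140678472, plus strand), the partner of Jarid2 in PRC2.2 and a zinc finger protein, had a difference of the opposite sign. It had 72.29 and 80.68 TPM in +/+ and 69.08 and 58.84 TPM in Chd5-/- NSCs. Both Chd5-/- values were below both +/+ values, with +/+ replicate 1 and Chd5-/- replicate 1 the nearest to each other. The log2 difference was -0.26 (95% interval -0.82 to 0.31, adjusted p = 0.507 with limma). Jarid2 and Aebp2 together held 87.37 and 92.05 TPM in +/+ and 95.17 and 95.40 TPM in Chd5-/- NSCs.

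The Polycomb-like subunits of PRC2.1 were among the lower members. Phf19 (chr2:34893757-34914026, minus strand) had 2.28 and 1.25 TPM in +/+ and 3.90 and 4.04 TPM in Chd5-/- NSCs. The genotypes were apart, but at the lowest level of the 10 members, and the +/+ replicates differed by 0.54 on the log2 scale. The log2 difference was 0.87 with a standard error of 0.35 (95% interval -0.024 to 1.77), at an unadjusted p of 0.0545 and an adjusted p of 0.214 with limma. Mtf2 (chr5:108065674-108109004, plus strand) had 16.13 and 13.36 TPM in +/+ and 16.23 and 17.59 TPM in Chd5-/- NSCs. Chd5-/- replicate 1 exceeded +/+ replicate 1 by a small margin only, and the log2 difference of 0.19 (95% interval -0.45 to 0.83, adjusted p = 0.667 with limma) turned to -0.16 with median-of-ratios scaling, to -0.25 with quantile normalization and to -0.033 with rescaling without the 20 most abundant rows.

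Of the demethylases, Kdm6b was the lower in level and had the larger difference. Kdm6b (chr11:69398508-69413675, minus strand), which signals induce in many cell types, had 3.91 and 2.62 TPM in +/+ and 7.38 and 8.11 TPM in Chd5-/- NSCs. Both Chd5-/- samples were above both +/+ samples, and the means were 3.27 ± 0.912 and 7.75 ± 0.516 TPM (SD, n = 2 each), a ratio of 2.37. The log2 difference was 1.05 with a standard error of 0.32 (95% interval 0.25 to 1.86), at an unadjusted p of 0.0197 and an adjusted p of 0.152 with limma. Kdm6a (X:18162575-18279936, plus strand) had 38.13 and 37.91 TPM in +/+ and 35.70 and 47.28 TPM in Chd5-/- NSCs. Its Chd5-/- samples lay on either side of the +/+ pair. The log2 difference of 0.11 (95% interval -0.51 to 0.73, adjusted p = 0.805 with limma) turned to -0.26, -0.13 and -0.12 under the same 3 scalings and to -0.088 without Chd5-/- replicate 2.

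Kdm6a is X-linked and escapes X inactivation, so its RNA can depend on sex, and Uty is its Y-linked paralog. Xist, which the inactive X makes in females, was at 403.35 and 214.52 TPM in +/+ and at 244.92 and 474.50 TPM in Chd5-/- NSCs. Uty was listed at 0 in both +/+ samples and at 0.04 and 0.06 TPM in Chd5-/- samples, Kdm5d was at 0.07 TPM or less and Eif2s3y at 0.06 TPM or less. Of the other genes that escape X inactivation, Ddx3x ran from 316.27 to 444.47 TPM, with both extremes in Chd5-/- cultures. Eif2s3x did not overlap and was lower, at 424.93 and 404.08 TPM in +/+ and 360.04 and 316.54 TPM in Chd5-/- NSCs. Its log2 difference was -0.29 (unadjusted p = 0.237 and adjusted p = 0.4475 with limma). Kdm5c, which also escapes, did not overlap either and was higher, at 31.06 and 24.48 TPM in +/+ and 50.29 and 60.49 TPM in Chd5-/- NSCs. The log2 difference of Kdm5c was 0.97 (unadjusted p = 0.0104 and adjusted p = 0.129 with limma), and 0.43 with GC and length trends removed. Xist was thus high and the Y-linked genes were near 0 in all 4 samples.

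**Figure D2:**
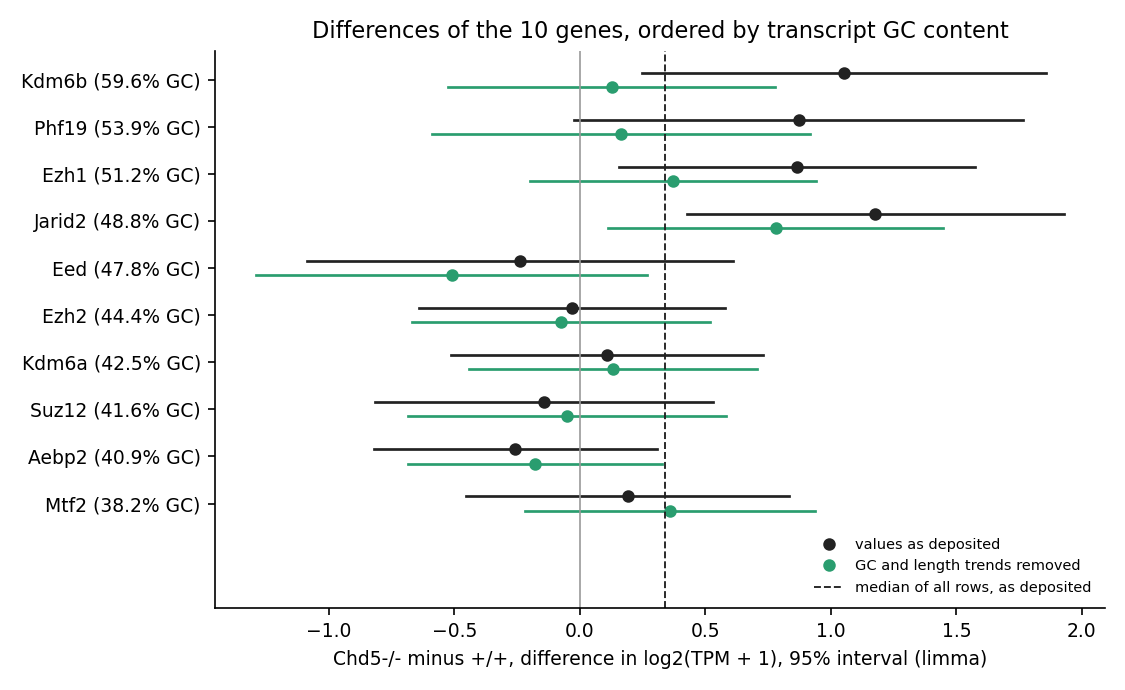
Chd5-/- minus +/+ difference in log2(TPM + 1) of each member with its 95% interval from limma, for the values as deposited (black) and with GC content and transcript length trends removed (green), members ordered by GC content and a dashed line at the median of all rows as deposited, 0.34. The intervals of Jarid2, Kdm6b and Ezh1 lie above 0 as deposited, and that of Jarid2 alone does so with the trends removed.

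The differences of the members followed the GC content of their transcripts. Kdm6b (59.6% GC), Phf19 (53.9%), Ezh1 (51.2%) and Jarid2 (48.8%) have the highest GC content of the 10, and they are the 4 with the largest log2 differences. Mtf2 (38.2%), Aebp2 (40.9%) and Suz12 (41.6%) have the lowest. As a description over the 10 members, which share all 4 libraries, Spearman's rho between difference and GC content was 0.66. The same trend was present between the +/+ replicates, where rho between the difference of +/+ replicate 1 from replicate 2 and GC content was 0.77. GC content thus went with the difference between the +/+ samples as well. No such rho was computed for the Chd5-/- replicates. There, replicate 1 differed from replicate 2 by -0.12 for Kdm6b and by -0.11 for Mtf2, the members of highest and lowest GC content.

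Trends with GC content and transcript length were therefore removed from each sample by loess, for the 96.3% of rows tested that had both. The median row then lay at -0.029 and the median member at 0.13. Jarid2 kept a log2 difference of 0.78 (95% interval 0.11 to 1.45) at an unadjusted p of 0.0305 and an adjusted p of 0.427 with limma, and it was the only member at an unadjusted p under 0.05, against 5.29% of rows higher and 6.0% lower. Ezh1 was at 0.37 (95% interval -0.20 to 0.94, adjusted p = 0.536 with limma), Kdm6b at 0.13 (95% interval -0.52 to 0.78, adjusted p = 0.857 with limma) and Phf19 at 0.16 (95% interval -0.59 to 0.92, adjusted p = 0.834 with limma). All of these 4 had both Chd5-/- values above both +/+ values, as did Mtf2. For 2 of them the margin was very small on the log2 scale. Phf19 was at 1.948 in +/+ replicate 1 and 1.952 in Chd5-/- replicate 2, and Kdm6b at 2.654 in +/+ replicate 1 and 2.66 in Chd5-/- replicate 1. Eed was then lower without overlap, at -0.51 (95% interval -1.29 to 0.27, adjusted p = 0.535 with limma), while Aebp2 overlapped. The share of all rows without overlap was not counted with the trends removed, so nothing is read from these separations. The part of GC content in the differences was not tested beyond this.

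**Figure D3:**
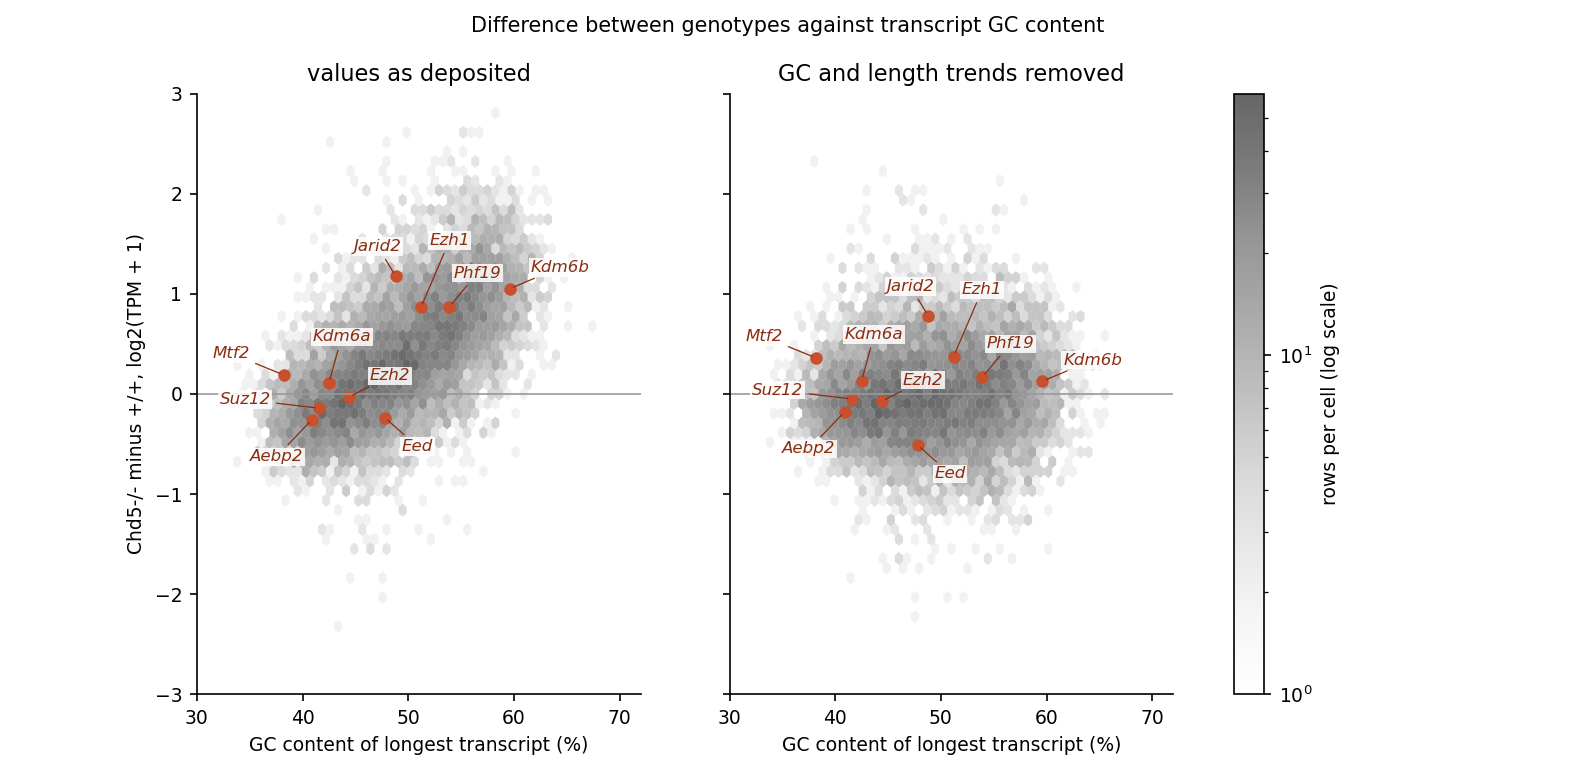
Chd5-/- minus +/+ difference in log2(TPM + 1) against the GC content of the longest transcript in percent, for all rows tested with both values (grey, darker for more rows) and the 10 members (orange, named), as deposited on the left and with GC and length trends removed on the right. The cloud rises with GC content on the left and is level on the right, where Jarid2 is at 0.78 and Kdm6b has come down from 1.05 to 0.13.

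Between paralogs, and between the PRC2.2 partners Jarid2 and Aebp2, the balance of RNA differed between the genotypes as deposited. TPM is a value per length, so that 2 genes can be set side by side within a sample. Ezh2 made up 84.6% and 85.2% of the summed TPM of Ezh1 and Ezh2 in +/+ and 74.3% and 74.1% in Chd5-/- NSCs. The replicates of a genotype differed by less than 1 percentage point, the means were 84.9% ± 0.437 and 74.2% ± 0.161 (SD, n = 2 each), and the difference was -10.7 percentage points. As deposited Ezh2 had nearly equal means, while with median-of-ratios scaling the log2 differences were -0.40 for Ezh2 and 0.52 for Ezh1. The log2 ratio of Ezh2 to Ezh1 differed by -0.97, and by -0.45 with GC and length trends removed, without overlap in either case.

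The share of Kdm6a in the sum of Kdm6a and Kdm6b was 90.7% and 93.5% in +/+ and 82.9% and 85.4% in Chd5-/- NSCs. The genotypes did not overlap as deposited, with means of 92.1% ± 2.01 and 84.1% ± 1.76 (SD, n = 2 each). With the trends removed the difference in log2 ratio went from -1.16 to 0.0051 and the genotypes overlapped. Jarid2 made up 17.3% and 12.4% of Jarid2 plus Aebp2 in +/+ and 27.4% and 38.3% in Chd5-/- NSCs. Its log2 ratio to Aebp2 was higher by 1.498, and by 0.96 with the trends removed, without overlap in either case. Phf19 made up 12.4% and 8.56% of Phf19 plus Mtf2 in +/+ and 19.4% and 18.7% in Chd5-/- NSCs. Its difference in log2 ratio to Mtf2 of 1.03 turned to -0.19 with the trends removed, without overlap in either case. No test was run on the shares, and those of Jarid2 and Phf19 were chosen after the values were seen.

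**Figure D4:**
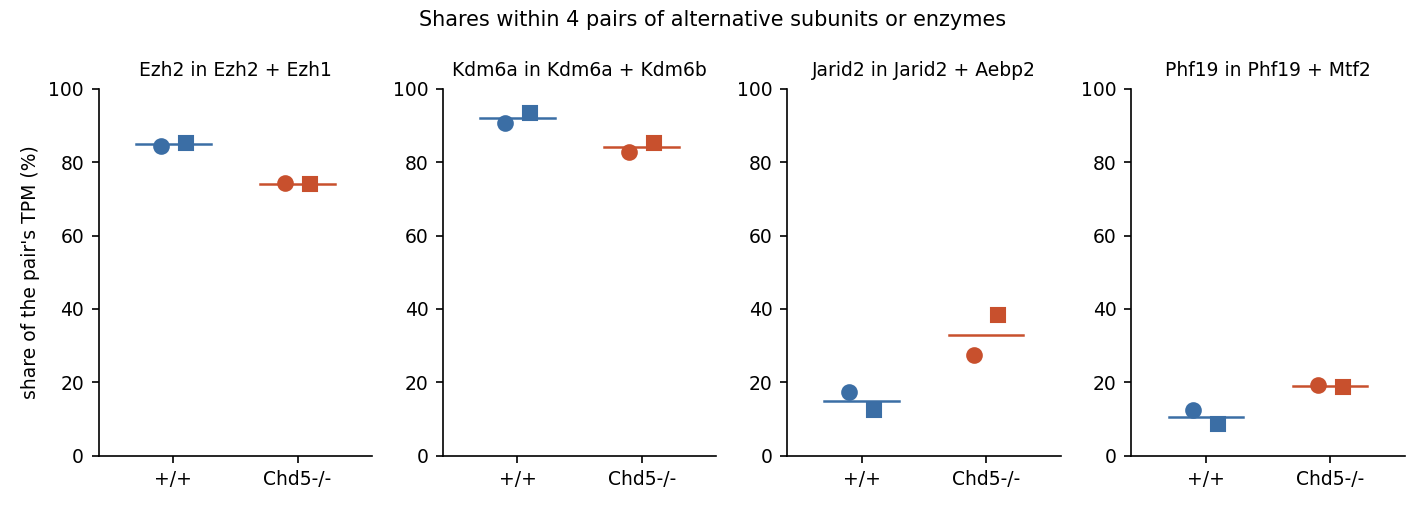
Share in percent of 1 gene in the summed TPM of a pair, for each of the 4 samples and the 4 pairs, with +/+ in blue, Chd5-/- in orange, circles for replicate 1, squares for replicate 2 and a line at each mean. The share of Ezh2 lies at 84.6% and 85.2% in +/+ and at 74.3% and 74.1% in Chd5-/- samples, and that of Jarid2 is higher in both Chd5-/- samples. Jarid2 and Aebp2 are partners in PRC2.2 and not alternatives to each other.

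In order of mean TPM, +/+ NSCs had Suz12 first with 81.8 ± 0.255 TPM, followed by Aebp2, Eed, Ezh2, Kdm6a, Mtf2, Jarid2, Ezh1, Kdm6b and Phf19 with 1.77 ± 0.728 TPM (SD, n = 2 each). Of these neighbours Eed and Ezh2 overlapped in their replicates, as did Mtf2 and Jarid2. In Chd5-/- NSCs Suz12 and Aebp2 overlapped at the top, Ezh2, Eed, Kdm6a and Jarid2 formed a chain of overlapping neighbours, and Ezh1 overlapped with Mtf2. Kdm6b and Phf19 were the lowest in both genotypes. Against all rows tested, the mean TPM of Suz12 was at the 84.0 percentile and that of Phf19 at the 12.7 percentile.

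The rows most like Ezh2 in pattern were Zfp445, Ctcf and Bace1, at Euclidean distances of 0.0197, 0.0234 and 0.0303 between centred log2(TPM + 1) values over 4 samples, out of 8198 rows whose mean TPM reached 10. Ctcf, the architectural zinc finger protein, had 81.50 and 66.58 TPM in +/+ and 66.77 and 79.18 TPM in Chd5-/- NSCs. As with Ezh2, 1 sample of each genotype was high and the other low. Likeness over 4 samples rests on few values.

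Other parts of the Polycomb system were counted from fixed lists, with direction by limma at an unadjusted p under 0.05. None of their genes passed an adjusted p of 0.05. The values over all rows beside which each list stands are 21.9% higher, 2.27% lower and a median of 0.34. Of 5 further PRC2 subunits and cofactors tested, 1 was higher and 0 were lower, with a median difference of 0.049 that turned to -0.32 with median-of-ratios scaling, to -0.20 with quantile normalization and to -0.18 with rescaling. The 1 was Phf1, the third Polycomb-like gene, with 0.60 and 0.83 TPM in +/+ and 4.06 and 2.63 TPM in Chd5-/- NSCs (log2 difference 1.33, adjusted p = 0.137 with limma), and it was at 0.38 with GC and length trends removed. The histone-binding subunits Rbbp4, with 162.86 to 192.72 TPM, and Rbbp7, with 166.66 to 305.27 TPM, were well above all members and overlapped between genotypes. Both were named after their values were seen.

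PRC1 in its canonical form binds the H3K27 methyl mark, and PR-DUB removes ubiquitin from H2A. The list of PRC1, canonical and variant, and PR-DUB had 10 of 26 rows higher and 1 lower. Its median was 0.69 beside 0.34 for all rows. Phc2 was at 10.95 and 8.26 TPM in +/+ and at 31.63 and 38.25 TPM in Chd5-/- NSCs (log2 difference 1.77, adjusted p = 0.120 with limma). Ring1, a ubiquitin ligase subunit, was at 2.78 and 1.67 against 7.37 and 6.73 TPM, and Bap1, the PR-DUB deubiquitinase, at 27.78 and 19.20 against 50.97 and 48.54 TPM. Yaf2, a subunit of variant PRC1, was the lower one, at 85.42 and 102.43 against 57.82 and 60.68 TPM (log2 difference -0.65, adjusted p = 0.172 with limma). With GC and length trends removed, 2 rows were higher and 2 lower and the median was 0.15, and Phc2 (0.79) and Yaf2 (-0.79) remained at an unadjusted p under 0.05. Without +/+ replicate 1 the list had 4 rows at that p, and without +/+ replicate 2 it had 1.

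Of 11 partners of KDM6A in the MLL3/MLL4 complex and H3K27 acetyltransferases, 2 were higher and 0 lower, with a median of 0.52. They were Pagr1a, at 6.71 and 3.93 TPM in +/+ and 15.54 and 16.57 TPM in Chd5-/- NSCs, and Kmt2d, the H3K4 methyltransferase of the complex, at 1.28 and 0.79 against 2.63 and 3.08 TPM. With the trends removed 0 were higher, and without +/+ replicate 2 the count was 1. Of 18 rows found from the list of developmental genes that PRC2 is known to silence, 4 passed the minimum of 1 TPM and were tested. Their median was -0.032, and -0.66 with the trends removed. Over the alternatives that median ran from -0.69 to 0.62. Of the 4 rows, 1 was higher. It was 1 of the 2 rows of Cdkn2a, at 2.68 and 5.22 TPM in +/+ and 14.34 and 12.34 TPM in Chd5-/- NSCs (log2 difference 1.58, adjusted p = 0.122 with limma), and it was at 0.54 with the trends removed. The other row of Cdkn2a was at 0.99 and 2.17 TPM in +/+ and listed at 0 in both Chd5-/- samples, and how the reads of this locus were divided between its rows is not known. Of 23 proliferation genes, 0 were higher and 0 lower, with a median of 0.38. Over the alternatives that median ran from -0.16 to 0.74.

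**Figure D5:**
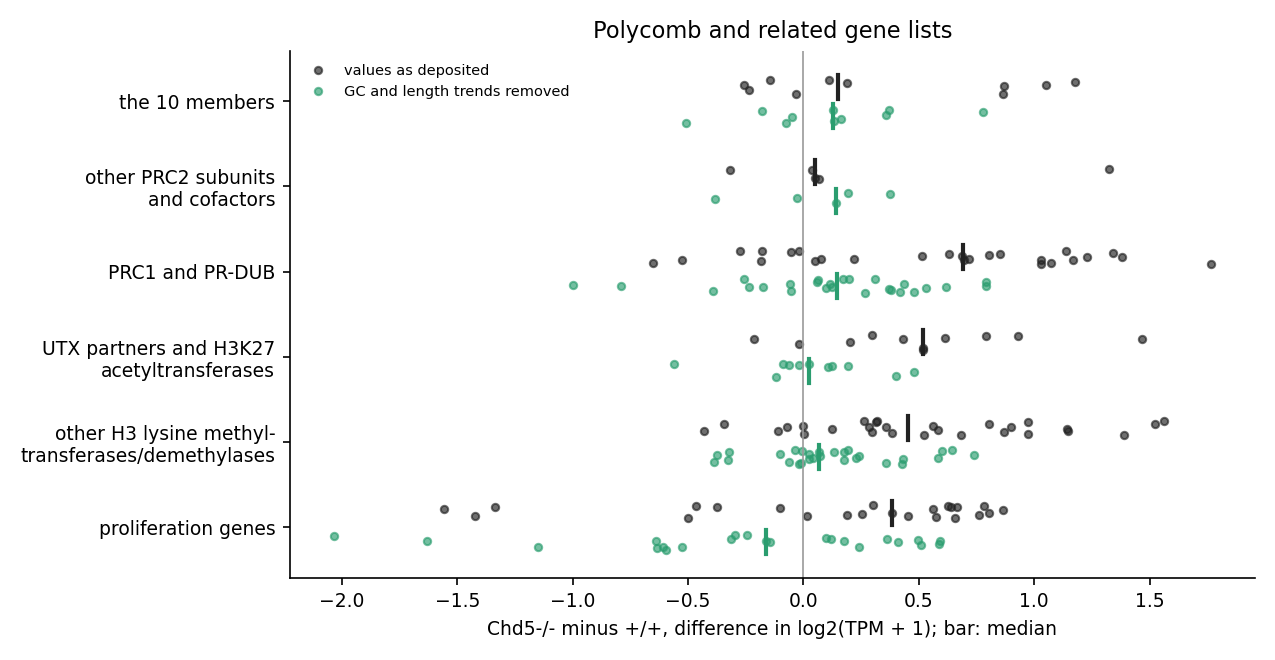
Chd5-/- minus +/+ difference in log2(TPM + 1) of each gene tested (points) among the members and in related lists, as deposited (black) and with GC and length trends removed (green), with a bar at each median. The list of PRC1 and PR-DUB has a median of 0.69 as deposited and 0.15 with the trends removed, and the members spread on both sides of 0.

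In the annotation, 7 of the 10 members overlap a gene on the opposite strand, among them Eed with E230029C05Rik over 261 bases and Mtf2 with Tmed5 over 2639 bases, both of which have rows of their own in the table. Kdm6b has the antisense gene Kdm6bos within it. The libraries kept strand, but whether strand was used in counting is not known, so reads of such overlaps may count for either gene.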

How the data were processed

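The authors deposited TPM values of RNA-seq libraries of polyadenylated RNA from 4 NSC cultures, in 1 table with a row per gene name, of which 196 names occur in more than 1 row. The submitters' processing notes name Bowtie2 2.2.3, RSEM 1.2.20 and the build mm10. The values were used as deposited, with columns assigned by name. TPM adds to the same total in each sample, and the 20 most abundant rows held 32.4% and 35.6% of it in +/+ and 21.6% and 22.8% in Chd5-/- samples, so that other rows shift against them. Because TPM are not counts, log2(TPM + 1) was compared between genotypes for rows whose mean TPM was 1 or more. R 4.3.3 and limma 3.58.1 were used (lmFit, eBayes with a trend, two-sided, no covariate), and p-values were adjusted by Benjamini-Hochberg over all 12576 rows tested.

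GC content and length of the longest transcript, and gene coordinates, came from GENCODE M21 of GRCm38, which may not be the authors' annotation, and trends were fitted by loess with a span of 0.5. Alternatives were pseudocounts of 0.1 and 5, a minimum of 10 TPM or none, scaling by quantiles, by median-of-ratios or to a total without the 20 most abundant rows, trend removal for GC and length, a block for replicate number (alone and with the trends removed), eBayes without a trend, and leaving out each sample. The crossed block and the trend-corrected pair ratios were added after the data were seen. The members and lists were chosen with earlier results of these data known. The text names all members, up to 3 genes per direction of each list by smallest unadjusted p under 0.05, all sex-linked genes matched, and the 3 rows nearest to Ezh2, and Ccnd1, Rbbp4 and Rbbp7 after their values were seen. The lists were other PRC2 subunits, PRC1 and PR-DUB, KDM6A partners and acetyltransferases, other H3 lysine methyltransferases and demethylases, developmental PRC2 targets, proliferation genes, sex-linked genes and cell type markers. Fabp7 and Map2 were singled out among the cell type markers after their values were seen. The scripts were tested on simulated data. Python 3.11.15, numpy 2.4.6, pandas 2.3.3 and matplotlib 3.10.9 made tables and figures. Promoter windows on 1 chromosome were not used here.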

Additional observations from a re-analysis of the deposited data

How the results depend on the processing

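The count of members past an adjusted p of 0.05 was 0 in all 16 alternatives, and Jarid2 (0.78 to 1.41), Ezh1 (0.36 to 1.02), Phf19 (0.16 to 1.18) and Kdm6b (0.13 to 1.27) stayed higher and Aebp2 stayed lower in every alternative that was fitted to them. Of the 3 members at an unadjusted p under 0.05, 1 remained when GC and length trends were removed and 1 with quantile normalization, Jarid2 in both. With limma, Ezh1 was no longer among them under median-of-ratios scaling (unadjusted p = 0.0832, adjusted p = 0.263), rescaling (0.0563 and 0.242) or the replicate block (0.0536 and 0.279), and under median-of-ratios scaling Aebp2 was among them, as lower (0.0462 and 0.219). Leaving out single samples gave 0 to 4 such members, 0 of them without +/+ replicate 2, and 804 to 4436 rows in all against 3033 (1600 without +/+ replicate 1 and 804 without +/+ replicate 2). A minimum of 10 TPM gave 1758 rows and removal of the trends 1368. The split of 2748 rows higher and 285 lower became 1508 and 1311 with median-of-ratios scaling, 1103 and 1024 with quantile normalization and 1871 and 819 with rescaling without the 20 most abundant rows. Under these 3 scalings the median over the members became -0.21, -0.18 and -0.078, and without single samples it ran from 0.084 to 0.28. The difference of Mtf2 turned to -0.16, -0.25 and -0.033 and that of Kdm6a to -0.26, -0.13 and -0.12, while Ezh2 went to -0.40, -0.22 and -0.26, Eed to -0.60, -0.42 and -0.47 and Suz12 to -0.51, -0.26 and -0.38. Leaving out single samples gave differences of -0.17 to 0.11 for Ezh2 (0.11 without +/+ replicate 1 and 0.10 without Chd5-/- replicate 1), -0.66 to 0.18 for Eed and -0.42 to 0.13 for Suz12 (both highest without Chd5-/- replicate 2) and -0.088 to 0.31 for Kdm6a. Members without overlap, 6 as deposited, were 9, 5 and 8 under these scalings, 4 of the 8 that passed a minimum of 10 TPM, and 6 to 10 when single samples were left out, and 10 without Chd5-/- replicate 2, where fewer samples have to be apart. The cause of the other changes was not tested. The share of all rows without overlap was not counted in these alternatives. The deviations of same-numbered samples correlated at -0.152 over 12576 rows. With 2 samples per genotype this cannot show whether same-numbered cultures were handled together. With the replicate block, 2 members and 2289 rows were at an unadjusted p under 0.05, with the replicate block and the trends removed 0 members and 896 rows, and with the crossed pairing, added after seeing the data, 3 members and 3092 rows. The unknown depth limits Phf19 and Kdm6b most, the lowest members.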

Other observations

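Other enzymes that methylate or demethylate lysines of histone H3 were counted in the same way. Of 28 tested, 9 were higher in Chd5-/- NSCs at an unadjusted p under 0.05 with limma, 0 were lower and 0 passed an adjusted p of 0.05, with a median log2 difference of 0.45. Over all rows 21.9% were higher and 2.27% lower, with a median of 0.34, and 19 of the 28 did not reach an unadjusted p under 0.05. Ehmt2, an H3K9 methyltransferase, had 11.06 and 6.75 TPM in +/+ and 24.96 and 30.37 TPM in Chd5-/- NSCs, a log2 difference of 1.56 (adjusted p = 0.120 with limma). Kdm4b, an H3K9 demethylase, had 3.15 and 1.43 TPM in +/+ and 7.67 and 8.60 TPM in Chd5-/- NSCs. Kdm5c, the X-linked H3K4 demethylase given above, was the third. With GC and length trends removed, 1 of the 28 was higher, the median was 0.069, and the differences of Ehmt2, Kdm4b and Kdm5c were 0.58, 0.60 and 0.43. Without +/+ replicate 2 the count was 1.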
